A study of Sus scrofa with 12 samples.

Results

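The nuclear genes of oxidative phosphorylation were picked by symbol from a table of gene expression in pig ovary, and 69 of its 29884 genes belonged to the set. These were the genes whose symbols name a subunit of complex I (NDUFA, NDUFB, NDUFC, NDUFS and NDUFV, 36 genes), complex II (SDHA to SDHD, 4 genes), complex III (UQCR, 2 genes), complex IV (COX5B to COX8H with NDUFA4 and NDUFA4L2, 10 genes) or complex V (ATP5, 17 genes). Of the 69 genes, 67 passed the filter on low values, at least 1 FPKM in at least 3 ovaries, as did 12260 genes in all. FPKM is a fragment count scaled to the length of the transcript and to the depth of the library. The 2 genes left out were NDUFA4L2 and COX8H.

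Left ovaries were taken from 6 sows of a commercial herd free of PRRSV and PCV at slaughter, 4 days after their 4th delivery. The small litter size group (SLS) was ZD2, ZD3 and ZD12, from a group with 8.48 ± 0.53 piglets per litter, and the large litter size group (LLS) was ZD5, ZD7 and ZD8, with 16.19 ± 0.43 piglets per litter. The labels name no treatment, and the groups differ in recorded litter size. Each ovary gave 1 library of total RNA depleted of ribosomal RNA, so the comparison asks which genes differ between ovaries of sows with small and large litters.

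Oxidative phosphorylation takes place in the inner membrane of the mitochondrion. Complexes I and II pass electrons from NADH and succinate to ubiquinone, complex III passes them on to cytochrome c, and complex IV hands them to oxygen, while complex V uses the proton gradient that complexes I, III and IV build up to make ATP. In steroid-making cells such as those of the corpus luteum, mitochondria are abundant and also hold the first step of steroid synthesis, the cleavage of the cholesterol side chain. A few subunits are encoded by the mitochondrial genome itself, and the genes described here are the nuclear ones.

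The library of ZD8 stood apart from the other 5. The library totals implied by the FPKM scaling were 51703531 to 60903268 reads in the other 5 libraries and 32272803 in ZD8. In the other 5, 11832 to 12531 genes reached 1 FPKM, against 13908 in ZD8. The 7 luteal markers (STAR, CYP11A1, HSD3B1, SCARB1, LHCGR, PTGFR, PRLR) summed to 9167 to 12191 FPKM in the other 5 ovaries and to 124 FPKM in ZD8, where 6 of the 7 had their lowest value. STAR, which brings cholesterol into the mitochondrion, stood at 2542 to 5418 FPKM in the other 5 and at 26.4 FPKM in ZD8. Both theca markers (CYP17A1, INSL3) summed to 9.31 to 74.4 FPKM against 415 FPKM in ZD8, and all 8 oocyte markers were highest in ZD8 (6.49 to 22.8 against 125 FPKM). Endothelial markers summed to 244 to 371 FPKM against 115 FPKM in ZD8, with 4 of 5 lowest there, and T cell markers to 2.29 to 5.06 against 13.1 FPKM. Of the granulosa markers FSHR, AMH and FOXL2 were highest in ZD8 and INHA lowest. None of these lists had a marker at 0 in all 6 ovaries. In RNA from whole ovary, fewer cells of a type and less RNA per cell cannot be told apart, and results are therefore given with and without ZD8.

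Sequence of the promoters is shown for the forms of 1 subunit whose balance differed most between ZD8 and the other ovaries, COX7A1 beside COX7A2 of complex IV, and ATP5G2 beside ATP5G1 and ATP5G3 of complex V. Each window holds 250 bases before and 50 bases from the RefSeq start of the gene on Sscrofa11.1, 300 bases in the sense of the gene. Capitals mark matches on either strand to CGCANGCGC (the motif of NRF1), CCGGAAG (ETS factors), AAGATGGCG (YY1) and CAAGGTCA (NR5A1 and the ESRR receptors). NRF1, the ETS factor GABP and ESRRA are known regulators of respiratory chain genes, and NR5A1 is a factor of steroid-making cells.

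COX7A1, chr6:45520672-45520971, minus strand: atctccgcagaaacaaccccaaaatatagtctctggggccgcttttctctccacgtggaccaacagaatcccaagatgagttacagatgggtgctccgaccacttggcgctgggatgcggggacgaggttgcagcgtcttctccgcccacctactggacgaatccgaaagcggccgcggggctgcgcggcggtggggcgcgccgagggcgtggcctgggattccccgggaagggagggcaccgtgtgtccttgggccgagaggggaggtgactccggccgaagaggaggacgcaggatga

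COX7A2, chr1:90696496-90696795, plus strand: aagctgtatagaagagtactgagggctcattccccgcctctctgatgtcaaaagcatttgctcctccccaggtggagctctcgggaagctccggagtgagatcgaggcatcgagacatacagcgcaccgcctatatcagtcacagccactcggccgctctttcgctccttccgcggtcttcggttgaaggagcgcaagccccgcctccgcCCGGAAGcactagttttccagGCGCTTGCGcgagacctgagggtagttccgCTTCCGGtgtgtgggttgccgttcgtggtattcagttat

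ATP5G1, chr12:25110290-25110589, plus strand: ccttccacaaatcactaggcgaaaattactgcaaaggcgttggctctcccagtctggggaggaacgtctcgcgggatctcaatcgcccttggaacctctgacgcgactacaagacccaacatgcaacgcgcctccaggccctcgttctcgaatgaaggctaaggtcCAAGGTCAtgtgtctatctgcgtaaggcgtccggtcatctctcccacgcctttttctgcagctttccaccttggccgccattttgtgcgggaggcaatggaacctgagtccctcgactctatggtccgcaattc

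ATP5G2, chr5:18879884-18880183, minus strand: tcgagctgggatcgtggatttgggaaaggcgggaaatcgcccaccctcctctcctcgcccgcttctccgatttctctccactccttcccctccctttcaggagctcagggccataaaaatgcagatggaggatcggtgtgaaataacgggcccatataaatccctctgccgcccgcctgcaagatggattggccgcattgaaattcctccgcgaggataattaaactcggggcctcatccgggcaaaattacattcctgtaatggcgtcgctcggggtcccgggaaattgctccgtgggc

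ATP5G3, chr15:81094248-81094547, minus strand: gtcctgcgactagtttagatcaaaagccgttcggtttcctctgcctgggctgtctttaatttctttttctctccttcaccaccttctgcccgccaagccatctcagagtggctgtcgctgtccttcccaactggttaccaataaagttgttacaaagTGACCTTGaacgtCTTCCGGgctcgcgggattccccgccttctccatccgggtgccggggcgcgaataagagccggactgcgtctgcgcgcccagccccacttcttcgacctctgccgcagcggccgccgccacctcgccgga

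The COX7A2 window held an NRF1 match at -19 and ETS matches at -40 and 12, counted from the gene start, and the COX7A1 window held none of these 4 motifs. ATP5G1 held CAAGGTCA at -84, and ATP5G3 held it on the other strand at -93 next to an ETS match at -80, while the ATP5G2 window held neither. Other genes above the median of the other ovaries in ZD8, COX6C (139%), NDUFA3 (154%), NDUFB4 (119%) and NDUFS6 (108%), did hold NRF1 matches. NDUFB11, at 12.4% in ZD8, held none of the 4 motifs. A relation between these motifs and the levels in ZD8 was not tested. Over the whole set, CAAGGTCA lay in 6 of 69 windows (8.70%; ATP5A1, ATP5G1, ATP5G3, COX7C, COX8H and SDHD), beside 1.03% of the 11804 windows of tested protein-coding genes. The NRF1 motif lay in 15 windows (21.7% beside 12.1%), CCGGAAG in 18 (26.1% beside 15.9%) and AAGATGGCG in 5 (7.25% beside 2.25%). GGGCGG, bound by Sp1, lay in 62.3% of the windows beside 64.1% of all, CCAAT in 33.3% beside 35.8%, and TATAAA in 5.80% beside 7.57%. Motifs were read on both strands, matches of different motifs may overlap, and a match is a stretch of letters, not a shown binding site. The windows had a median GC content of 58.3%, beside 62.3% for all.

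No gene of the set passed the test of LLS against SLS. By limma on log2(FPKM + 1), 0 of 67 passed an adjusted p under 0.05 with a log2 fold change over 1, as did 0 of 12260 genes (0%), and 0 of 67 had an unadjusted p under 0.05, beside 216 of all genes (1.76%). The limma adjusted p was 0.999 for each of the 67 genes, and limma voom on the recovered reads also called 0 of all genes. The fold changes nevertheless lay mostly on one side, with 62 of 67 genes lower in LLS (92.5%) beside 47.4% of all genes tested. Their median log2 fold change was -0.39, beside 0.02 for all genes, and single genes ran from -0.83 (NDUFB1) to 0.11 (COX6C).

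This one-sidedness rested on ZD8. Without ZD8, 41 of 67 genes were lower in LLS (61.2%), beside 66.0% of all genes, and the median log2 fold change was -0.06, beside -0.10. In that fit limma called 0 genes of the set, beside 21 of all (0.171%), and 1 gene, COX7A1, had an unadjusted p under 0.05, beside 5.88% of all genes. By complex, the median log2 fold change with and without ZD8 was -0.40 and -0.07 for complex I, -0.29 and 0.05 for complex II, -0.11 and 0.27 for complex III, -0.30 and -0.08 for complex IV, and -0.47 and -0.15 for complex V.

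**Figure D1:**
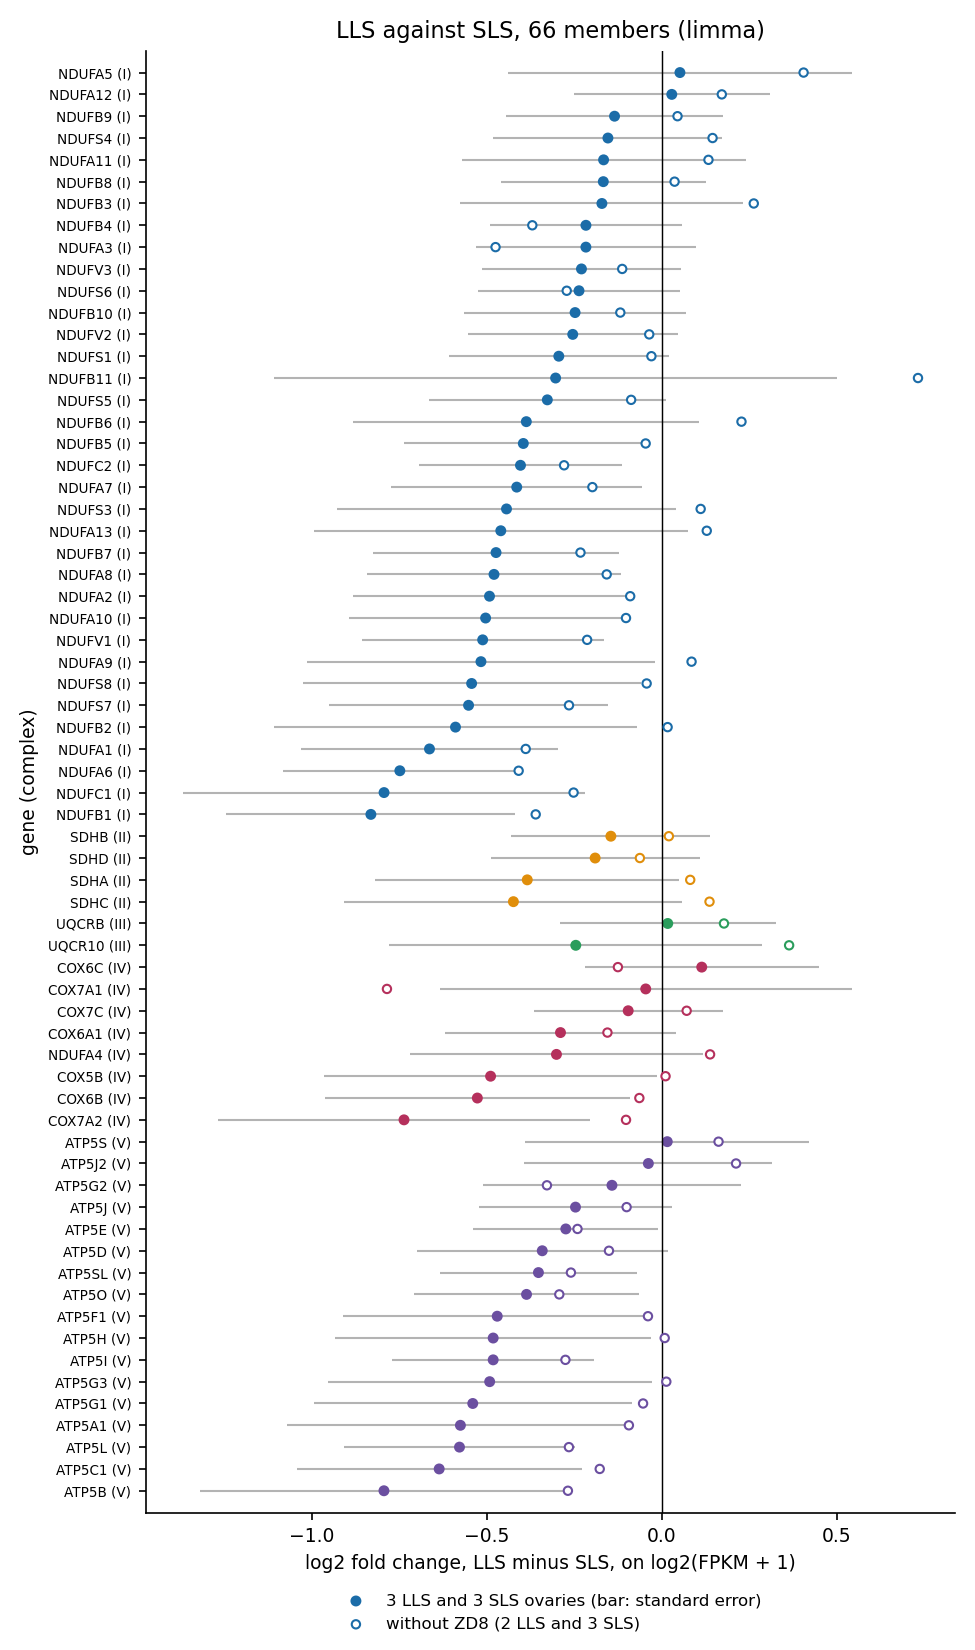
Log2 fold change, LLS minus SLS on log2(FPKM + 1), of 66 of the 67 genes tested, coloured by complex. Filled points with their limma standard error use all 6 ovaries, and open points leave out ZD8; 61 filled points and 41 open points lie below 0.

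In 58 of 67 genes (86.6%) the value in ZD8 was below those of all other 5 ovaries, beside 26.3% of all genes tested. The median gene of the set stood in ZD8 at 49.3% of its median in the other 5, while the median of all tested genes stood at 120%. In 3 genes (COX7A1, COX6C and NDUFA3) ZD8 was above all other 5, beside 44.6% of all genes. In 24 genes ZD8 lay below 50% of the lowest of the other 5 ovaries, beside 7.50% of all genes. The 24 were 12 of complex I, SDHA and SDHC of complex II, UQCR10 of complex III, COX7A2, COX5B and COX6B of complex IV, and ATP5B, ATP5A1, ATP5G3, ATP5H, ATP5C1 and ATP5G1 of complex V. They thus came from every complex and included catalytic subunits of complexes II and V. Summed, the set made up 1.24% to 1.44% of all FPKM in the other 5 ovaries and 0.577% in ZD8.

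Expressed as the deviation of log2(FPKM + 1) from the mean of the gene over the 6 ovaries, the median of the set was 0.32 in ZD2, -0.03 in ZD3, 0.33 in ZD12, 0.10 in ZD5, 0.16 in ZD7 and -0.85 in ZD8. The order of the other 5 ovaries and the sign in ZD3 changed with the scaling (0.059 in ZD3 with an equal sum per library), while ZD8 was lowest under each scaling. Over all tested genes the same median was 0.19 in ZD8 and lay between -0.12 and 0.12 in the other ovaries. The median deviation in ZD8 was alike in the larger complexes, with -0.85 for complex I, -0.72 for complex IV and -0.65 for complex V. Luteal markers were low with the set in ZD8, and their part in the result was not tested.

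**Figure D2:**
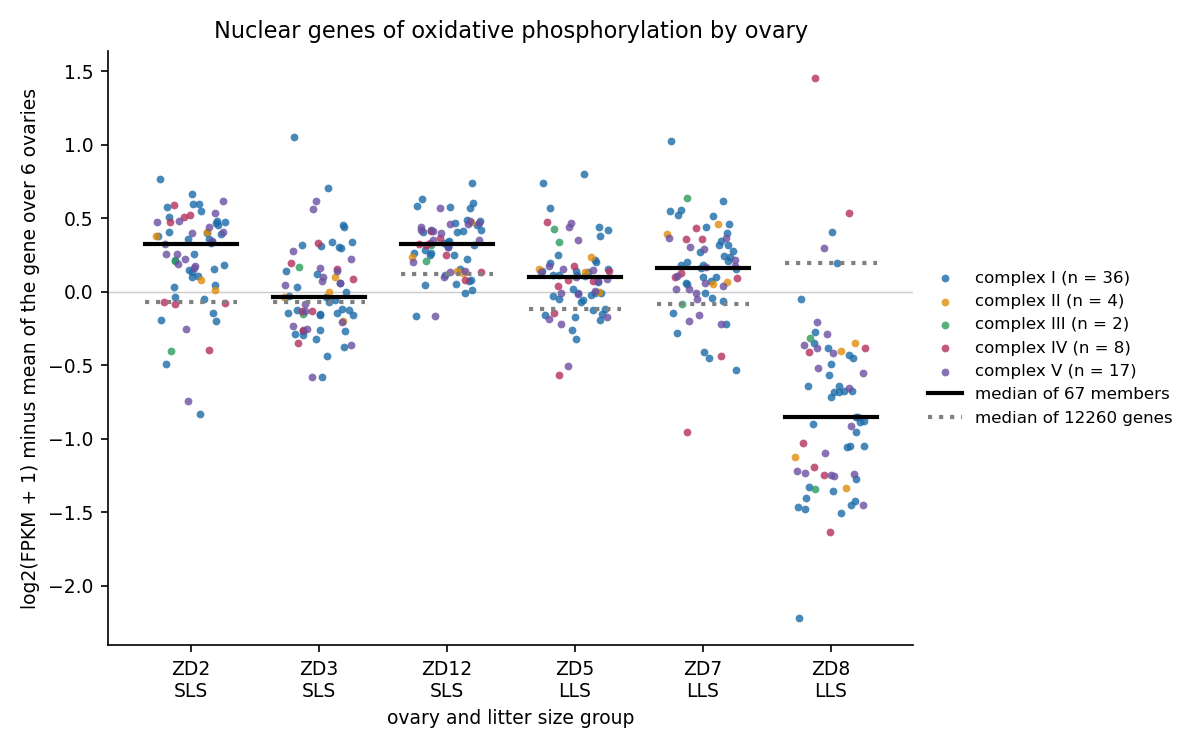
Deviation of log2(FPKM + 1) from the mean of the gene over 6 ovaries, by ovary and group, with 1 point per gene coloured by complex. Black bars are medians of the 67 genes and dotted bars medians of the 12260 genes; the black bar lies at -0.85 in ZD8, where the dotted bar lies at 0.19.

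In complex I, which takes electrons from NADH, NDUFB11 had the highest mean level. NDUFB11, an accessory subunit of the membrane arm on chromosome X (41770929 to 41773879, minus strand), stood at 185, 97.9 and 96.2 FPKM in SLS (in the order ZD2, ZD3, ZD12, kept below) and at 181, 222 and 22.4 FPKM in LLS (ZD5, ZD7, ZD8). The groups overlapped, with ZD8 at 12.4% of the median of the other 5, the lowest such share in the set. The log2 fold change was -0.30 (limma SE 0.80) with ZD8 and 0.73 (SE 0.33, limma adjusted p = 0.859) without it. Up to 639 bases of its exons lie opposite exons of RBM10, and which strand the authors counted is not given in the sources used here.

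NDUFA6 and NDUFB1, both accessory subunits, had the smallest p in complex I. NDUFA6 (chromosome 5, 6562074 to 6567321) was at 16.9, 16.6 and 19.0 FPKM in SLS and at 13.2, 12.7 and 5.88 FPKM in ZD5, ZD7 and ZD8, a log2 fold change of -0.75 (limma SE 0.33). NDUFB1 (chromosome 7, 113652772 to 113659937) was at 70.5, 57.6 and 59.1 FPKM in SLS and at 50.3, 46.2 and 17.5 FPKM in LLS, with -0.83 (limma SE 0.41). In both genes every LLS ovary lay below every SLS ovary, and without ZD8 the log2 fold changes were -0.41 and -0.36.

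NDUFA5, a subunit of the matrix arm, had the lowest mean of complex I. Its values were 3.52, 12.1 and 7.31 FPKM in SLS and 13.0, 6.81 and 4.01 FPKM in LLS, so that ZD3 and ZD5 were high and the groups overlapped (limma log2 fold change 0.05, SE 0.49). The core subunits that carry electrons showed the pattern of ZD8 to different extents. NDUFS8 stood in ZD8 at 29.4% of the median of the other 5 and NDUFV1, which binds NADH, at 46.3%, but NDUFV2 at 61.8% and NDUFS1 at 56.3%. NDUFB4, NDUFS6 and NDUFA3 went the other way, at 119%, 108% and 154%.

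Complex II, succinate dehydrogenase, is also an enzyme of the citric acid cycle and has no subunit from the mitochondrial genome. SDHC, one of its membrane anchors, stood at 133, 108 and 110 FPKM in SLS and at 118, 138 and 39.2 FPKM in ZD5, ZD7 and ZD8. SDHA, the flavoprotein that oxidises succinate, was at 132, 98.9 and 119 FPKM against 113, 133 and 46.0 FPKM. The other anchor, SDHD, was at 60.2, 51.8 and 83.1 FPKM against 59.6, 62.4 and 46.5 FPKM. All 4 genes were lowest in ZD8, with SDHB, the iron-sulfur subunit, at 71.0% and SDHD at 77.2% of the other 5 and SDHC and SDHA at 33.1% and 38.5%. Among the other 5 ovaries SDHB varied only 1.11-fold from lowest to highest. The limma log2 fold changes were between -0.42 (SDHC, SE 0.48) and -0.15 (SDHB, SE 0.28), and without ZD8 those of SDHC, SDHA, SDHB and SDHD were 0.14, 0.08, 0.02 and -0.06.

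Only UQCR10 and UQCRB of complex III carry such a symbol in the table. UQCR10, a small subunit, stood at 183, 143 and 197 FPKM in SLS and at 200, 247 and 61.9 FPKM in LLS, with a log2 fold change of -0.25 (limma SE 0.53) and of 0.36 without ZD8. UQCRB, which lies near the ubiquinone site, was at 18.4, 27.8 and 28.6 FPKM against 33.3, 23.1 and 19.6 FPKM, with no separation of the groups and its lowest value in ZD2. Further subunits of complexes III and IV stand in the table under LOC numbers, which the choice by symbol does not take in. Of 17 such rows 13 were tested, 9 of the 13 were lowest in ZD8, and the median stood in ZD8 at 52.0% of the other 5. Cytochrome c1 (LOC100525869) was at 71.0 to 119 FPKM in the other 5 ovaries and at 26.4 FPKM in ZD8, and core protein 1 of complex III (LOC100156879) at 136 to 214 against 38.5 FPKM.

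Complex IV, cytochrome c oxidase, is the complex whose subunits exist in the most tissue forms, and here the genes did not move as one. COX7A2, known as the form found in most tissues, stood at 185, 162 and 153 FPKM in SLS and at 145, 165 and 40.7 FPKM in ZD5, ZD7 and ZD8. Its partner COX7A1, known as the heart and muscle form, was at 9.81, 8.55 and 14.3 FPKM in SLS and at 6.72, 4.91 and 30.4 FPKM in LLS. COX7A1 thus had its highest value in the ovary in which COX7A2 had its lowest. Its value in ZD8 was 3.56 times the median of the other 5, from 322 reads, while COX7A2 stood at 25.1% of it, from 620 reads.

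COX7A1 therefore made up 5.02%, 5.01% and 8.53% of the summed FPKM of both forms in SLS, 4.43% and 2.88% in ZD5 and ZD7, and 42.8% in ZD8. The groups overlapped (SLS 6.19% ± 2.03, LLS 16.7% ± 22.6, SD, n = 3 each, exact two-sided permutation test p = 1, where 0.1 is the smallest p of 3 against 3). With all 6 ovaries COX7A1 had a log2 fold change of -0.05 (SE 0.59, limma adjusted p = 0.999). Without ZD8 it was -0.79 (SE 0.29, limma adjusted p = 0.618), with both LLS ovaries below all 3 of SLS and an unadjusted p under 0.05. Since both ovaries with the lowest values were of LLS and the highest was as well, the sign of the difference in share turned with ZD8, from 10.5 percentage points to -2.53. Smooth muscle markers (MYH11, ACTA2, TAGLN, CNN1, DES) summed to 314 to 1796 FPKM in the other 5 ovaries and to 914 FPKM in ZD8, where MYH11 and DES were highest. Striated muscle markers summed to 1.40 to 4.02 FPKM and to 0.618 FPKM in ZD8, a sum carried by CKM. Without CKM, the only striated muscle marker past the filter, they summed to 0.0489 to 0.244 FPKM and to 0.440 FPKM in ZD8. There MYH2, TNNT1 and TNNT3 were highest, from only 24, 19 and 2 reads, while MYH7 and ACTA1 were not highest. The direction for striated muscle thus turned with CKM, and the other markers lay near 0. The part of the muscle markers in the result was not tested.

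The forms of other subunits of complex IV are partly known only under LOC numbers. COX6A1, the common form of subunit 6A, stood at 105, 58.9 and 94.1 FPKM in SLS and at 68.0, 82.4 and 56.4 FPKM in LLS, and the heart and muscle form 6A2 (LOC100626250) at 3.96 to 7.28 FPKM in the other 5 ovaries and 7.99 FPKM in ZD8. The muscle form thus took 5.11% to 7.18% of both in the other 5 ovaries and 12.4% in ZD8 (exact permutation p = 0.6, n = 3 each). The annotated transcripts are 2726 nt for 6A2 and 554 nt for COX6A1, and this share depends on these lengths. Isoform 2 of subunit 4 (LOC110257420), a form known from lung and low oxygen, took 3.18% to 4.20% of both forms in all 6 ovaries. COX8H, the muscle form of subunit 8, had 2 reads in ZD12 and none in the other ovaries. Subunit 7B2 and subunit 6B2, known from testis, did not exceed 0.375 FPKM in any ovary.

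COX6C shared the direction of COX7A1. It stood at 39.1, 57.7 and 54.7 FPKM in SLS and at 54.4, 38.1 and 75.6 FPKM in ZD5, ZD7 and ZD8, where it was at 139% of the other 5. Up to 132 bases of its exons lie opposite exons of VPS13B. That gene was at 7.79 to 11.9 FPKM in the other 5 ovaries and at 22.0 FPKM in ZD8, and its part was not tested. COX6B, at 76.8, 46.2 and 64.2 FPKM against 52.2, 65.3 and 21.7 FPKM, had ZD8 at 33.8%. NDUFA4, which is found in complex IV despite its name, was at 79.5, 95.5 and 105 FPKM against 116, 89.4 and 40.4 FPKM. The 2 smallest p of complex IV were those of COX7A2 (limma log2 fold change -0.74, SE 0.53) and COX6B (-0.53, SE 0.43). Without ZD8 these were -0.10 (SE 0.25) and -0.06 (SE 0.28), and NDUFA4 went from -0.30 (SE 0.42) to 0.14 (SE 0.26).

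NDUFA4L2, the form of NDUFA4 known to be induced by low oxygen, was below 1 FPKM in 4 of the 6 ovaries. Its values were 0.779, 0.516 and 0.470 FPKM in SLS and 1.89, 1.64 and 0.635 FPKM in LLS, so that the levels overlapped. As a share of NDUFA4 and NDUFA4L2 it took 0.970%, 0.537% and 0.446% in SLS and 1.60%, 1.80% and 1.55% in LLS, with every LLS ovary above every SLS ovary (exact permutation p = 0.1, the smallest possible). In ZD8, NDUFA4L2 was at 81.5% of the median of the other 5 and NDUFA4 at 42.3%. The annotated transcript of NDUFA4L2 is 6639 nt, and the share depends on that length.

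**Figure D3:**
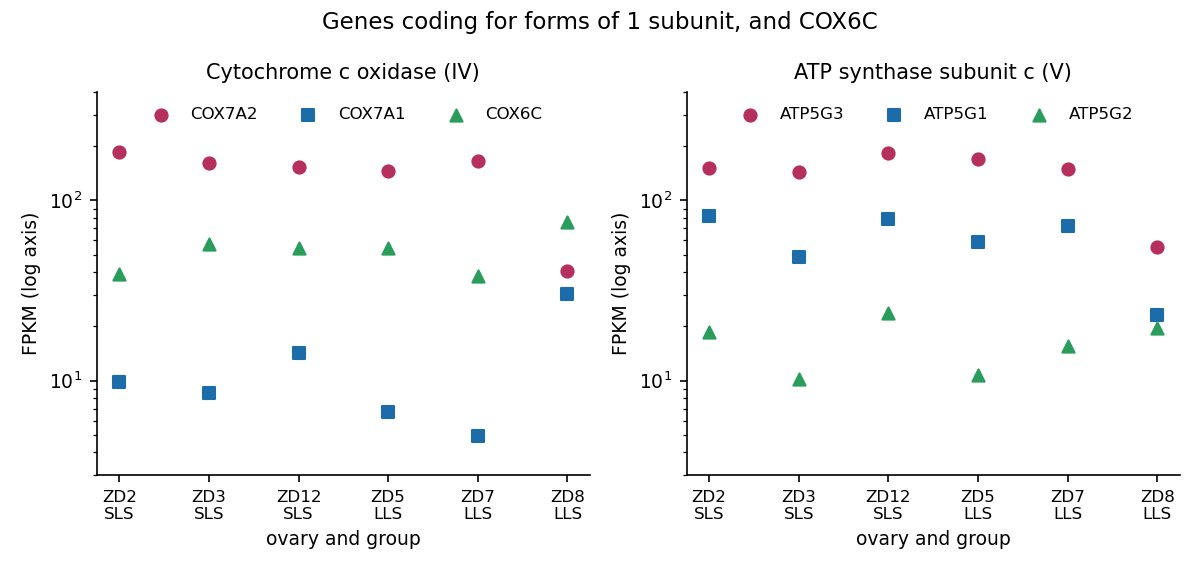
FPKM on a log axis in each of the 6 ovaries, for COX7A2, COX7A1 and COX6C of complex IV (left) and for the 3 genes of ATP synthase subunit c (right). In ZD8 the common forms COX7A2 and ATP5G3 stand at 40.7 and 55.4 FPKM, and COX7A1 and COX6C at 30.4 and 75.6 FPKM, above their values in the other ovaries.

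Complex V, ATP synthase, held the genes with the highest levels of the whole set. ATP5B, the catalytic beta subunit (chromosome 5, 21984750 to 21992393), stood at 513, 391 and 427 FPKM in SLS (443 ± 62.8, SD, n = 3) and at 355, 377 and 122 FPKM in ZD5, ZD7 and ZD8 (284 ± 141, SD, n = 3). Every LLS ovary lay below every SLS ovary, with a limma log2 fold change of -0.79 (SE 0.53), and without ZD8 it was -0.27 (SE 0.29). ATP5L, subunit g of the membrane part, was at 37.2, 30.4 and 40.4 FPKM against 29.2, 30.0 and 15.0 FPKM and had the smallest p of complex V (log2 fold change -0.58, SE 0.33). ATP5I, subunit e, was at 30.6, 24.6 and 24.7 FPKM against 24.8, 19.0 and 13.8 FPKM (-0.48, SE 0.29). Without ZD8 the log2 fold changes of ATP5L and ATP5I were -0.27 and -0.28. ATP5S, coupling factor B, had the lowest mean, with 1.64, 5.76 and 3.73 FPKM against 5.11, 2.94 and 2.62 FPKM. ATP5SL, at 17.5 to 31.3 FPKM, was taken in by its symbol, although its protein is known as an assembly factor of complex I and not as a subunit of complex V.

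In 6 genes of the set every LLS ovary lay below every SLS ovary (8.96%), beside 3.17% of all genes tested, and in 0 genes every LLS ovary lay above, beside 1.95%. These were NDUFA6 and NDUFB1 of complex I and ATP5B, ATP5C1, ATP5J and ATP5L of complex V. ATP5C1, the gamma subunit that turns inside the catalytic head, was at 72.0, 72.9 and 80.8 FPKM in SLS and at 68.0, 64.6 and 24.9 FPKM in LLS. ATP5J, coupling factor 6, was at 80.3, 75.5 and 78.9 FPKM against 70.9, 74.9 and 53.5 FPKM. Between the lowest SLS ovary and the next LLS ovary the gap was thus small in ATP5J. Without ZD8 the log2 fold changes of the 6 genes lay between -0.41 (NDUFA6) and -0.10 (ATP5J), with limma standard errors of 0.23 for both.

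Subunit c, which forms the rotor ring of ATP synthase, is encoded by ATP5G1, ATP5G2 and ATP5G3, whose proteins differ only in the leader that is cut off on import. ATP5G3 stood at 151, 143 and 185 FPKM in SLS and at 170, 150 and 55.4 FPKM in LLS, and ATP5G1 at 82.0, 48.5 and 78.6 FPKM against 59.0, 72.5 and 23.1 FPKM. ATP5G2 was at 18.6, 10.2 and 23.9 FPKM against 10.8, 15.7 and 19.6 FPKM. ATP5G1 and ATP5G3 were thus lowest in ZD8, at 31.9% and 36.7% of the other 5, and ATP5G2 was not, at 125%. The share of ATP5G2 in the 3 genes was 7.39%, 5.03% and 8.32% in SLS, 4.49% and 6.57% in ZD5 and ZD7, and 20.0% in ZD8 (exact permutation p = 0.9, n = 3 each). The log2 fold changes with and without ZD8 were -0.49 and 0.01 for ATP5G3, -0.54 and -0.05 for ATP5G1, and -0.14 and -0.33 for ATP5G2. Of the tested genes whose promoter window held CAAGGTCA, ATP5A1 stood at 34.2% of the other 5 in ZD8, ATP5G1 and ATP5G3 as given above, and COX7C stood at 71.3% and SDHD at 77.2%. A relation between the motif and these values was not tested. ATPIF1, the inhibitor of ATP synthase, which is outside the set by its symbol, was at 76.7 to 139 FPKM in the other 5 ovaries and at 34.9 FPKM in ZD8.

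Within the other 5 ovaries the genes of the set varied by a median of 1.56-fold from lowest to highest, beside 1.81-fold for all genes. NDUFV2 (1.11-fold) and ATP5J (1.13-fold) were among the steadiest, and NDUFA5 (3.68-fold), ATP5S (3.52-fold) and NDUFC1 (2.98-fold) varied most among the tested ones. In ZD2, ZD3 and ZD5 this variation ran along the GC content of the transcripts, which was 35.3% to 66.9% in the set. In ZD12 and ZD7 it did so only weakly. Over the 67 genes, Pearson's r between GC content and the deviation from the mean of the other 5 ovaries was 0.653 in ZD2, -0.676 in ZD3, 0.305 in ZD12, -0.624 in ZD5 and 0.268 in ZD7. Over all tested genes the same r was 0.654, -0.749, 0.282, -0.46 and 0.342. These are correlations across genes of 1 library each and are given as a description, since the genes share the library and its base composition. In ZD3 and ZD5, 1 ovary of each group, the genes above the median GC content stood low (median deviation -0.37 and -0.18 from the mean of these 5 ovaries), and those below it near 0 (0.0044 and -0.028). In ZD2, ZD12 and ZD7 these medians were 0.25, 0.21 and 0.10 above the median GC content and 0.0056, 0.07 and -0.07 below it. In ZD8 r was 0.02 over the set, with the deviation from the mean of all 6 ovaries, and genes of high and low GC content were low alike (-0.85 and -0.79 as medians above and below the median GC content).

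**Figure D4:**
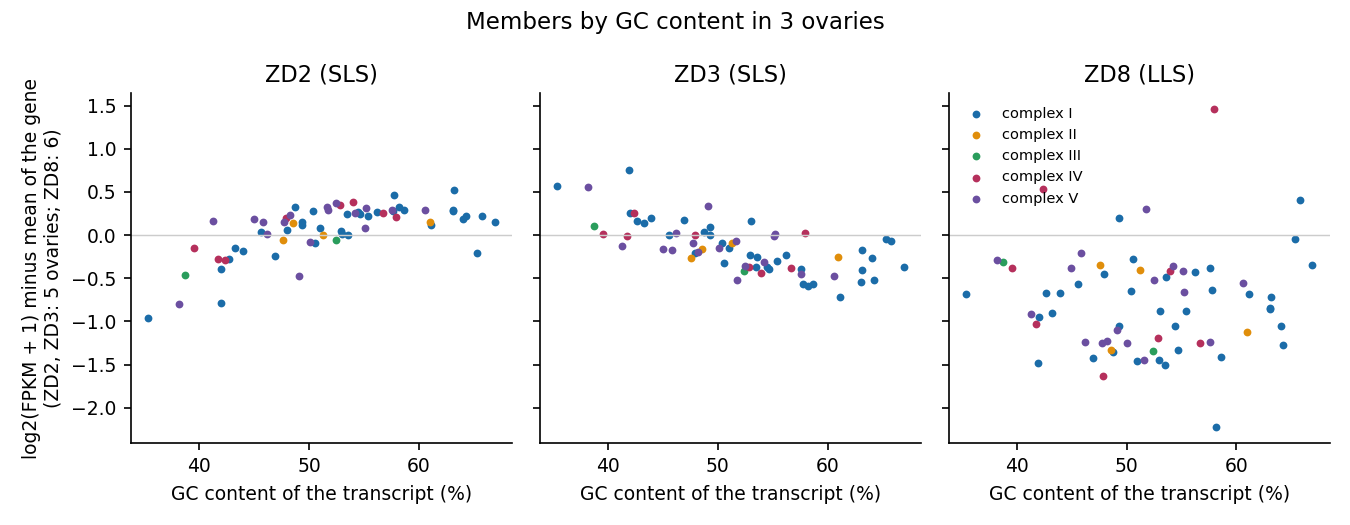
Deviation of log2(FPKM + 1) from the mean of the gene against the GC content of its transcript in percent, for the 67 genes, in ZD2 and ZD3 (mean of 5 ovaries, without ZD8) and in ZD8 (mean of 6). Points rise with GC content in ZD2 (r = 0.653), fall in ZD3 (r = -0.676) and follow no line in ZD8 (r = 0.02), where most lie below 0.

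Other mitochondrial genes were described in the same way, by their counts. In limma 0 genes of these lists were called, beside the 0 of all genes, and 1 of 198, HSPE1, had an unadjusted p under 0.05 (0.505%, beside 1.76% of all genes). Of 17 enzymes of the citric acid cycle and pyruvate dehydrogenase, 16 were lowest in ZD8, and the median stood there at 50.4% of the other 5. CS, citrate synthase, was at 138 to 172 FPKM in the other 5 ovaries and at 54.2 FPKM in ZD8. Of 22 genes for import, porins and chaperones 17 were lowest in ZD8 (55.9%), of 19 electron and metabolite carriers 13 (60.0%), of 76 mitochondrial ribosomal proteins 42 (70.9%), and of 30 assembly factors 15 (75.4%). The percentages in parentheses are again medians of ZD8 against the other 5. HSPE1, the chaperonin partner of HSPD1 in the mitochondrial matrix, was the gene with the smallest p of these lists, at 117, 130 and 164 FPKM in SLS and 68.3, 66.5 and 52.9 FPKM in LLS. Its log2 fold change was -1.11 (SE 0.30, limma adjusted p = 0.999), with every LLS ovary below every SLS ovary, and -0.999 without ZD8.

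The 21 regulators of mitochondrial gene expression stood at 106% of the other 5 in ZD8, where 7 were lowest (33.3%, beside 26.3% of all genes) and 10 highest (47.6%, beside 44.6%). NRF1 was at 2.18 to 3.11 FPKM in the other 5 ovaries and at 7.40 FPKM in ZD8, GABPA at 4.55 to 14.2 and 8.49 FPKM, and ESRRA at 8.02 to 14.1 and 5.25 FPKM. TFAM, which packs mitochondrial DNA, was at 6.17 to 22.4 and 6.95 FPKM. In these counts and in their median, beside 120% for all genes, the regulators lay nearer to all genes than the subunits did.

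Genes of the mitochondrial genome, which code for the remaining subunits, varied more than the nuclear ones. Their median deviation was 0.13 in ZD2, 1.72 in ZD3, -0.73 in ZD12, 1.77 in ZD5, -0.80 in ZD7 and -2.0 in ZD8, and 12 of 13 were lowest in ZD8. ZD3 and ZD5 were the high ovaries for these genes but not for the nuclear set, whose medians there were -0.03 and 0.10. In ZD8 both genomes' genes were low, at a median of 21.9% of the other 5 for the mitochondrial and 49.3% for the nuclear genes.

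**Figure D5:**
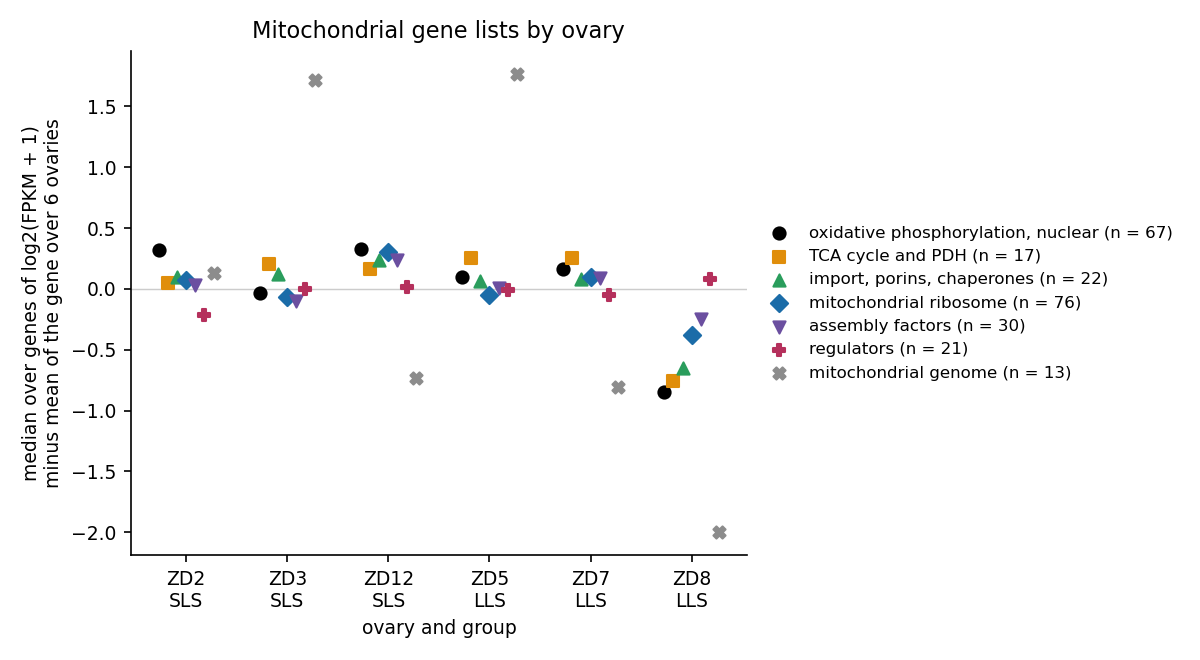
Median deviation of log2(FPKM + 1) from the mean of the gene over 6 ovaries, by ovary and group, for 7 lists of mitochondrial genes. In ZD8 the medians lie at -0.85 for the nuclear oxidative phosphorylation genes, -0.38 for the mitochondrial ribosome, 0.08 for the regulators and -2.0 for the mitochondrial genome.

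Levels between genes depend on the transcript by which FPKM divides, here the longest annotated one, of 317 to 4478 nt in the tested genes of the set (median 818 nt, beside 3403 nt for all). ATP5G2 has the longest of these, so its share of subunit c is lower than with a shorter model. In 10 genes of the set (ATP5B, ATP5G1, ATP5H, ATP5L, COX6C, COX7C, NDUFA1, NDUFA2, NDUFA5 and NDUFB3) the genome holds 1 or 2 copies with at least 90% identity over at least 80% of the coding sequence, and reads shared with these could be split. The copies stood at 3.74 FPKM or less where the table lists them. The copy of ATP5G1 on chromosome 13 (LOC100519871), had 0.305, 0.431 and 0 FPKM in SLS and 3.74, 3.14 and 1.15 FPKM in LLS, with every LLS ovary above every SLS ovary. Its log2 fold change was 1.499 (SE 0.37, limma adjusted p = 0.999), and 1.85 without ZD8 (SE 0.26, limma adjusted p = 0.0328), where it was among the 21 genes called. This copy reached 1 FPKM only in the LLS ovaries, ZD8 among them, so it passed the filter only through the group where it was high. It was also named after its values were seen. The separation and the call therefore lend no support to a group difference. In 18 genes exons overlap those of a gene on the opposite strand, and their values carry that uncertainty.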

How the data were processed

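Total RNA of 6 left ovaries was depleted of ribosomal RNA and sequenced, and the FPKM values per gene that the authors deposited came from reads trimmed by NGSQCToolkit and aligned by HISAT2 against Sscrofa11.1. The program that counted reads on genes, its strand setting and its annotation are not given in the sources used here. The small RNA tables were not used here.

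Genes with at least 1 FPKM in at least 3 of the 6 libraries were tested by limma 3.58.1 (R 4.3.3) with a trended variance on log2(FPKM + 1), LLS against SLS, two-sided, with Benjamini-Hochberg adjustment over 12260 genes. Genes were called when the adjusted p was under 0.05 and the log2 fold change was over 1 in size. On that scale the change of low genes is understated. Shares of subunit forms were compared by an exact permutation test. Dividing by the longest annotated transcript gave whole reads, within 0.001, for 23452 of 23564 genes above 0 FPKM (99.5%). Depth is the library total in the FPKM scaling that gives these whole reads, and not a sum of them. The RefSeq annotation held 29862 of the names and also gave promoters, GC content and overlapping exons. Near copies were searched with blastn 2.17.0. The fit was also run on simulated reads with known changes, and no result of that run is used here. The ovaries are separate sows, 1 library each.

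The members, the pathway lists and the markers were chosen with earlier results of these data known. Named with values in every ovary were, per complex, the genes with the highest mean, the lowest mean past the filter and the 2 smallest limma p, and the forms of 1 subunit. Of the pathway lists, genes of the smallest p could be named. COX6C, SDHB, ATP5C1, ATP5J, NDUFA3, NDUFB4, NDUFS6, LOC100519871, CS and the regulators were named after their values were seen. Alternatives covered the pseudocount, the filter, the scaling, the variance model, array weights, limma voom on the recovered reads, the thresholds and the omission of single ovaries. A gene of the set is counted but not reported by name here.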

Additional observations from a re-analysis of the deposited data

How the results depend on the processing

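No gene of the set was called under any alternative tried, and its median log2 fold change stayed below 0, from -0.54 without LLS replicate 1 (ZD5) to -0.06 without LLS replicate 3 (ZD8). Over all genes limma called 13 with array weights, 99 with an unadjusted p and the fold change, and 0 to 21 when 1 ovary was left out, the 21 without ZD8. The count of genes of the set lower in LLS (62), whose alternatives were chosen after seeing the data, was 41 to 64 with 1 ovary left out, the 41 without ZD8, and 51 with array weights, which moved the median of the set to -0.15. The share of COX7A1 (10.5 percentage points) ran from -2.53 to 17.4 with 1 ovary left out, that of ATP5G1 (-1.83) from -3.93 to 0.485, that of ATP5G2 (3.43) from -1.39 to 6.36 and that of ATP5G3 (-1.61) from -5.34 to 1.91. On recovered reads, which are not per length, the difference in share was 8.72 for COX7A1, -2.80 for ATP5G1, 6.65 for ATP5G2, -3.86 for ATP5G3 and 7.23 for NDUFA4L2 (0.996 on FPKM). The log2 fold change turned its sign for ATP5S (-0.0080), COX7A1 (0.063) and NDUFA5 (-0.019) with quantile normalization, for ATP5S (-0.0077) and UQCRB (-0.0063) with median centring, and for NDUFA4 (0.079), NDUFB11 (0.64), SDHC (0.080) and UQCR10 (0.23) with array weights. With 1 ovary left out it ran from -0.47 to 0.11 for ATP5G2, from -0.79 to 0.013 for ATP5G3, from -0.35 to 0.33 for ATP5S, from -0.79 to 0.42 for COX7A1, from -0.61 to 0.14 for NDUFA4, from -0.35 to 0.42 for NDUFA5, from -0.89 to 0.73 for NDUFB11, from -0.68 to 0.081 for SDHA, from -0.76 to 0.14 for SDHC, from -0.63 to 0.36 for UQCR10 and from -0.19 to 0.18 for UQCRB. The median deviation of the set in ZD3 (-0.03) was 0.059 with an equal sum per library, 0.0061 with quantile normalization and 0.012 with median centring, which also moved ZD5 from 0.10 to 0.20, ZD7 from 0.16 to 0.25 and ZD12 from 0.33 to 0.20. In ZD8 it ran from -1.08 to -0.72 over all alternatives run. The cause of these turns was not tested beyond the ovary left out. No paired analysis was possible because the labels give no replicate numbers and the ovaries are from separate sows, so the numbers used here only name them. The tested genes of the set rested on 82 reads (NDUFA1 in ZD8) or more in every ovary.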

Other observations

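The rows that code for forms of the same subunits under LOC numbers were not in the set by symbol and varied in how they stood in ZD8. Isoform 1 of subunit 4 (LOC100624067) was at 125 to 204 FPKM in the other 5 ovaries and at 146 FPKM in ZD8, 91.6% of their median, while subunit 8A (LOC100522725) was at 113 to 246 FPKM and at 93.2 FPKM. The gene annotated as a protein related to subunit 7A (LOC100516606), which is known from supercomplex assembly, was at 30.8 to 53.0 FPKM and at 43.2 FPKM. CYCS, cytochrome c itself, was at 23.2, 46.4 and 35.5 FPKM in SLS and at 38.2, 18.3 and 6.78 FPKM in LLS. SLC25A5, an ADP and ATP carrier, was at 104 to 157 FPKM in the other 5 ovaries and at 18.4 FPKM in ZD8. PPARGC1A, a coactivator of mitochondrial genes, was at 0.297, 0.521 and 0.602 FPKM in SLS and at 3.05, 1.72 and 0.590 FPKM in LLS, below the filter. These genes were chosen after their values were seen.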
